A study of Homo sapiens with 4 samples.

Results

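The 2 mitochondrial ribosomal RNA genes, MT-RNR1 and MT-RNR2, and 3 nuclear copies of MT-RNR2, namely MTRNR2L8, MTRNR2L1 and MTRNR2L2, were examined in a list of regions from AGO PAR-CLIP. A region was counted for a gene when at least 1 nt of it overlapped the gene on the gene's own strand. By this rule 28 of the 211947 regions in the list belonged to the 5 genes, 16 to the rRNA genes and 12 to the copies. On the opposite strand 3 further regions overlapped them, which are described apart. The series holds 4 libraries, 3 from AGO1 and 1 from AGO2, all from HEK293, a line of human embryonic kidney cells. For AGO1, cells that stably expressed a His/FLAG/HA-tagged protein received 200 µM 4-thiouridine for 16 h, and an antibody to FLAG was used. For AGO2, cells whose own labels name no tag received 100 µM for 16 h, and an antibody to AGO2 was used. All cells were crosslinked at 365 nm. The list gives 1 score per region for a library set whose members no source used here names, so that AGO1 and AGO2 could not be compared, the depth of each library is unknown and no value below has a replicate error.

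The mitochondrial chromosome is transcribed into long RNAs that are cut at the tRNAs lying between the other genes. MT-RNR1 encodes the 12S rRNA of the small subunit of the mitochondrial ribosome and MT-RNR2 the 16S rRNA of its large subunit. In the RefSeq table the tRNA gene for phenylalanine (TRNF) comes just before the 12S gene, that for valine (TRNV) lies between the 12S and 16S genes, and that for leucine (TRNL1) follows the 16S gene and is followed by ND1, which encodes a subunit of respiratory complex I. MT-RNR2 also holds the small reading frame of the peptide humanin. The MTRNR2L genes are stretches of mitochondrial DNA inserted in nuclear chromosomes, with reading frames like that of humanin, and RefSeq lists the 3 studied here as pseudogenes. Argonaute proteins carry microRNAs to target RNAs, mainly in the cytoplasm. The sequences of the 5 genes were not used here, so how closely the copies match the mitochondrial genes was not measured.

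On hg19, whose mitochondrial chromosome is the version of 16571 nt, MT-RNR1 lies at 650 to 1603 and MT-RNR2 at 1673 to 3230 of the plus strand. MTRNR2L8 lies on the minus strand of chromosome 11 at 10529434 to 10530723, MTRNR2L1 on the plus strand of chromosome 17 at 22022437 to 22023991, and MTRNR2L2 on the minus strand of chromosome 5 at 79945819 to 79946854. These spans are 954, 1558, 1290, 1555 and 1036 nt long. RefSeq on GRCh38.p14 gives MTRNR2L8 the same length of 1290 nt, but gives MTRNR2L1 1249 nt and MTRNR2L2 611 nt, so the ends of the latter pair depend on the annotation. All positions are counted from 1.

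Most of the length of both rRNAs lay under regions, and the nuclear copies held few regions, all of low score. Sense regions covered 1324 nt of MT-RNR2 (85.0% of the gene) and 538 nt of MT-RNR1 (56.4%). Of the mitochondrial plus strand outside the rRNA genes 69.4% was covered, so dense coverage was not particular to the rRNAs. In the copies, sense regions covered 106 nt of MTRNR2L2 (10.2%), 108 nt of MTRNR2L8 (8.37%) and 76 nt of MTRNR2L1 (4.89%). In summed score per 100 nt of gene, the order was MT-RNR2 with 187, MT-RNR1 with 97.8, MTRNR2L8 with 1.01, MTRNR2L2 with 0.965 and MTRNR2L1 with 0.45. The score is a whole number between 1 and 1000 given by the authors without a unit, and 1000 was read as a ceiling, so that a sum with such a region is a lower bound. No neighbours in this order could be tested against a spread between libraries. The order of MTRNR2L8 and MTRNR2L2 turned when regions had to lie wholly in the gene (0.543 and 0.965).

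**Figure D1:**
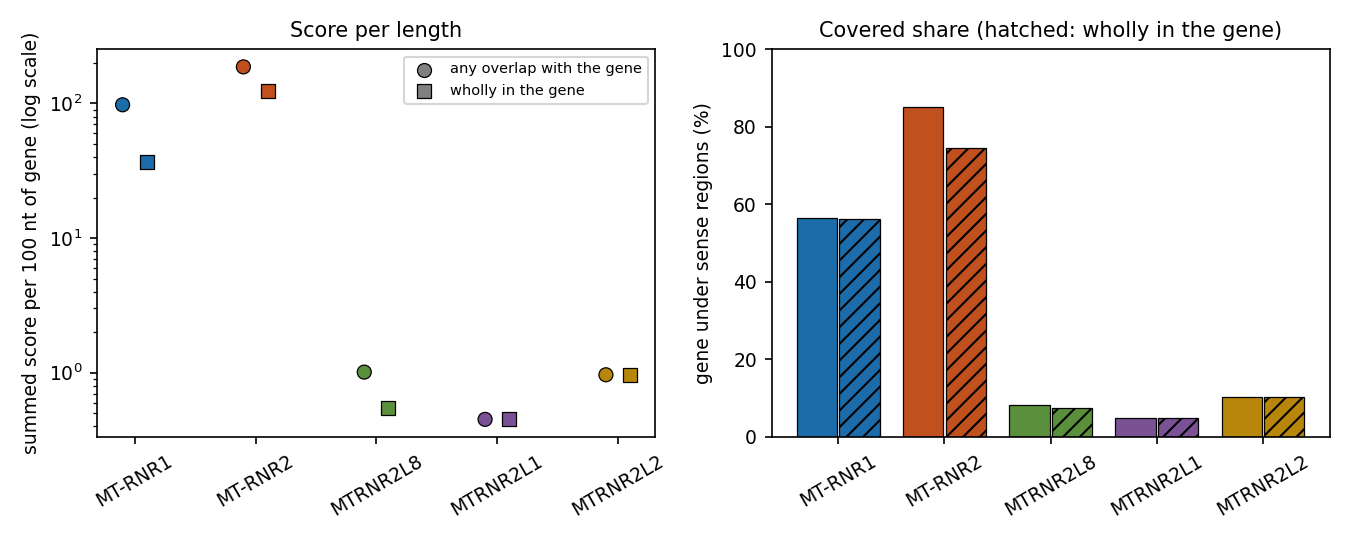
Summed score of sense regions per 100 nt of gene, on a log axis (left; circles, regions with any overlap; squares, regions wholly in the gene), and percent of each gene under sense regions (right; plain bars, any overlap; hatched bars, wholly in the gene). Each value comes from the single list and has no error bar. Both rRNAs lie between 36.8 and 187 per 100 nt and the 3 copies between 0.45 and 1.01.

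The highest score counted for each rRNA came from a region that lay mostly outside it. The region at 563 to 652 had a score of 582, but only 3 of its 90 nt were in MT-RNR1. Its inner position, the single nucleotide that the list marks inside each region, was at 595, ahead of the 12S gene on the side of the phenylalanine tRNA. The region at 3067 to 3821 stood at the ceiling of 1000, with 164 of its 755 nt in MT-RNR2 and its inner position at 3434, past the 16S gene on the side of ND1. Without these regions the summed score was 351 over 6 regions for MT-RNR1 and 1921 over 8 regions for MT-RNR2, which is 36.8 and 123 per 100 nt. On the rest of the plus strand, regions that overlapped no rRNA gene had 72.9 per 100 nt, above MT-RNR1 and below MT-RNR2. The remaining 14 rRNA regions lie wholly in a gene, with their inner positions, and are called inner regions below.

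MT-RNR1 had a comb of moderate scores with a wide hole in its middle. Its 6 inner regions, from the 5′ end, lay at 683 to 779, 805 to 895, 905 to 1047, 1259 to 1301, 1358 to 1457 and 1506 to 1566. Their scores in that order were 64, 86, 40, 2, 92 and 67. A single region was thus low and the other 5 lay between 40 and 92. The region of score 2 stood at the edge of the longest uncovered stretch, 211 nt from 1048 to 1258, while the other 6 stretches of the gene without a region were 9 to 56 nt long. In 3 equal parts of 318 nt from the 5′ end, 79.9%, 33.6% and 55.7% of the 12S gene was covered.

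MT-RNR2 had narrower holes and reached far higher scores. At its 5′ end, the regions at 1676 to 1789 and 1816 to 1908 had scores of 159 and 308. Next came 3 regions of 40 to 53 nt with lower scores, 18 at 1976 to 2015, 56 at 2040 to 2090 and 37 at 2132 to 2184. They were followed by a region of 105 nt at 2198 to 2302 with a score of 467. It had the most score per nt of width of the 8, 4.45.

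A single region then filled much of the remaining 16S gene. It spanned 597 nt from 2320 to 2916, which is 38.3% of MT-RNR2, and had a score of 833. Of the 211947 regions in the list, 9 had a score that high or higher. Its inner position, 2765, was 1093 nt from the 5′ end of the gene, toward the 3′ side of the region. The last inner region, at 2956 to 3062, had a score of 43. The 9 stretches of MT-RNR2 without a region were 3 to 67 nt long (median 24.0 nt), against a median of 37.0 nt over 7 stretches in MT-RNR1. In 3 parts of 519, 520 and 519 nt from the 5′ end, 67.6%, 95.6% and 91.7% of the 16S gene was covered.

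**Figure D2:**
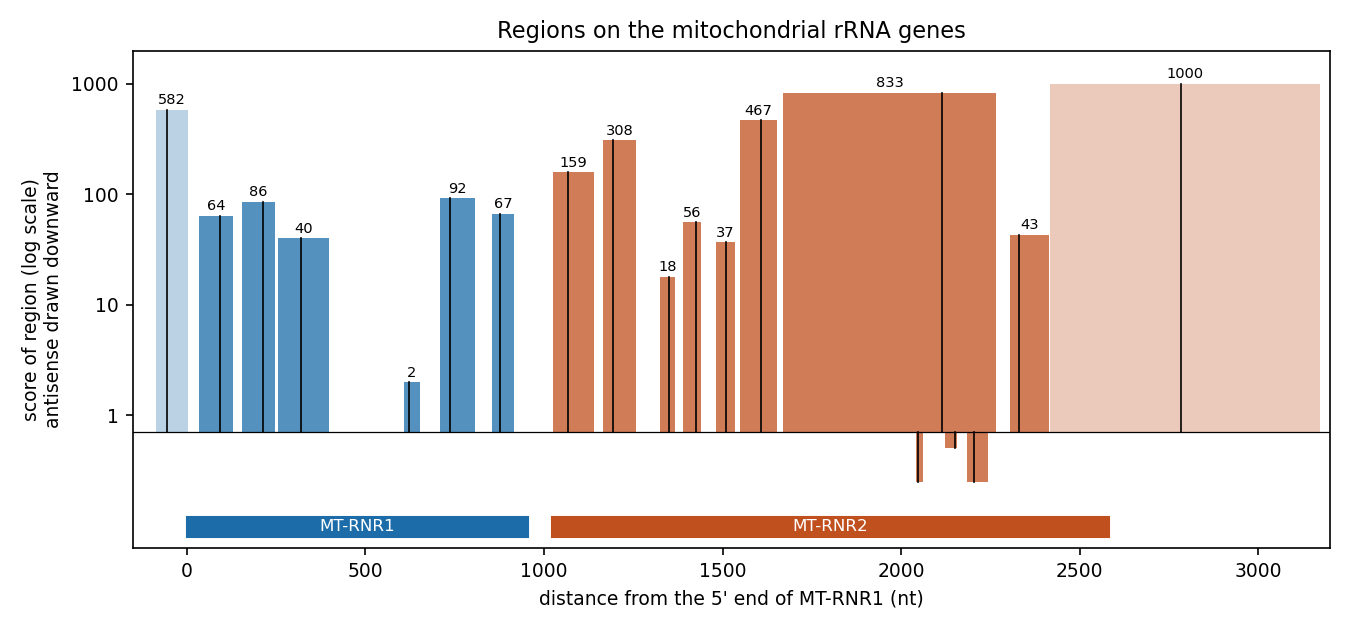
Regions on the mitochondrial rRNA genes by distance from the 5′ end of MT-RNR1 in nt, with the score on a log scale whose foot lies just below 1. Solid boxes are regions wholly in a gene, pale boxes those that cross a gene end, black lines the inner positions, and boxes drawn downward the 3 antisense regions. The pale boxes carry the scores of 582 and 1000, and the hole of 211 nt lies in the middle of MT-RNR1.

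The interval between both rRNA genes, 69 nt from 1604 to 1672 where the valine tRNA lies, held no region on either strand. The nearest plus-strand regions ended at 1566 and began at 1676. By contrast, the interval before the 12S gene, on the side of the phenylalanine tRNA, lay under the region of score 582.

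Per length, the score on MT-RNR2 exceeded that on MT-RNR1, but the ratio depended on how scores above 100 were counted. The ratio of summed score per nt was 1.92 with any overlap and 3.35 with regions wholly in each gene. Per covered nt, with 1160 nt covered in MT-RNR2 and 535 nt in MT-RNR1 and mean scores of 240 and 58.5, the latter ratio was 2.52. Without the region of score 833 it was 1.90 per nt of gene. With scores above 100 set to 100, the ratio fell below 1, to 0.888 with any overlap and 0.966 with regions wholly in each gene. No inner region of MT-RNR1 scored above 92, so under the latter rule the cap could lower only MT-RNR2. Scores above 100 were held by 4 of the 8 inner regions of MT-RNR2 (159, 308, 467 and 833). A cap that acts on these alone cannot show that the excess rests on a few regions.

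The rest of the mitochondrial plus strand carries most of the mitochondrial mRNAs. Its share of high scores and that of the rRNAs had overlapping intervals, which does not show that the shares are equal. Scores of 100 or more were found for 6 of the 16 rRNA regions (37.5%, interval 18.5 to 61.4 by Wilson's method at 95%) and for 25 of the other 79 plus-strand regions (31.6%, 22.4 to 42.5). In the whole list 0.264% of the regions passed this threshold. The 6 include the regions of score 582 and 1000, which lie mostly outside the genes. Among regions wholly in a gene, the count was 4 of 14 (28.6%, 11.7 to 54.6). By gene it was 4 of 8 for MT-RNR2 (50.0%, 21.5 to 78.5) and 0 of 6 for MT-RNR1 (upper bound 39.0%). These intervals cover counting error only, and regions are not replicates. The rRNA genes make up 15.2% of the mitochondrial chromosome and their regions carried 27.3% of its plus-strand score, or 16.1% counting only those wholly in a gene. The amount of each RNA in the cells was not measured.

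Regions on the rRNAs were wide, and against nuclear regions their scores were also high for their width. The 14 inner regions had a median width of 95 nt, against 59.0 nt on the rest of the plus strand and 32.0 nt over nuclear regions. Per nt of its own width, the median region scored 0.79 in MT-RNR1 and 1.25 in MT-RNR2. The median was 0.836 on the rest of the plus strand and 0.0833 over 211759 nuclear regions. The lowest of MT-RNR1, 0.0465 for the region of score 2, lay below the nuclear median, while the lowest of MT-RNR2 was 0.402. For nuclear regions the upper quartile was 0.133, which 5 of 6 inner regions of MT-RNR1 and 8 of 8 of MT-RNR2 exceeded. Most other mitochondrial plus-strand regions exceeded it too, as their lower quartile was 0.252.

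**Figure D3:**
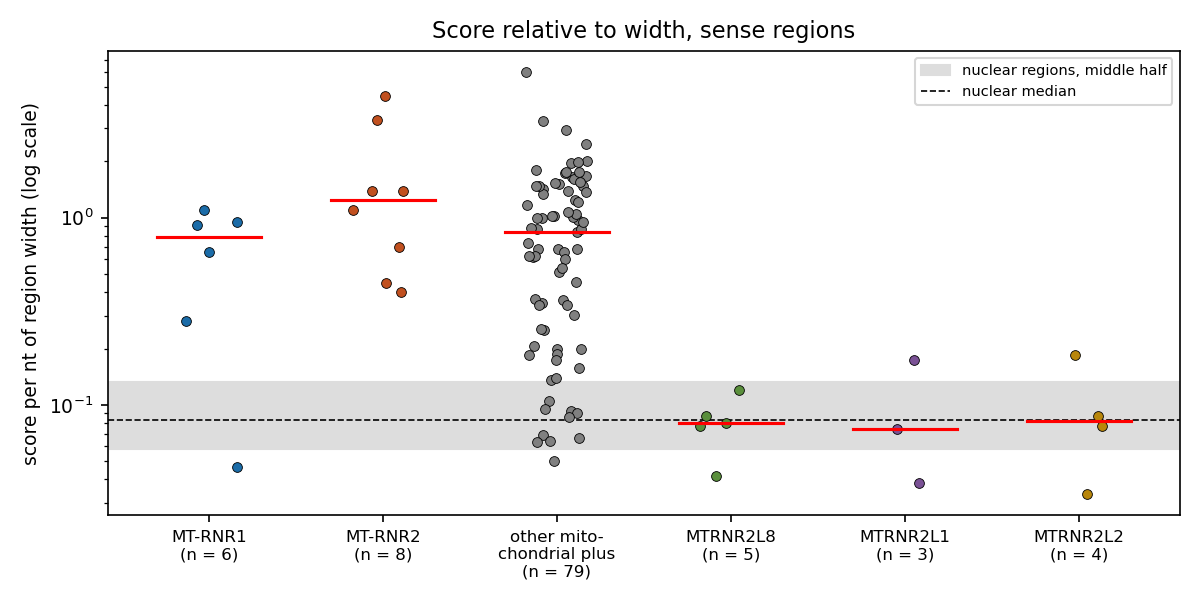
Score of each sense region divided by its width in nt, on a log axis, for the inner regions of both rRNAs, the 79 other mitochondrial plus-strand regions and all sense regions of the 3 copies. Points are regions, red lines medians, the dashed line the nuclear median of 0.0833 and the grey band the middle quartiles of nuclear regions (0.0583 to 0.133). MT-RNR1 and MT-RNR2 overlap the other mitochondrial regions, and most regions of the copies lie in or near the grey band.

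Antisense regions were nearly absent from the rRNA genes. MT-RNR1 had 0 and MT-RNR2 had 3, at 2691 to 2711 (score 2), 2772 to 2806 (score 1) and 2835 to 2891 (score 2). All 3 lay opposite the wide region of score 833. They made up 3 of the 93 minus-strand mitochondrial regions (3.23%, Wilson 95% interval 1.10 to 9.06) on genes that fill 15.2% of the chromosome, and 0.27% of the minus-strand score. Their summed score of 5 was 0.13% of the score on both strands of the rRNA genes, whereas the minus strand held 15.3% outside them. The plus strand carries most but not all mitochondrial mRNAs, so minus-strand score outside the rRNA genes need not be antisense. The sets compared are thus unlike.

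The strand difference, with the same limit, was also seen region by region. Of the 16 rRNA regions, 2 overlapped a minus-strand region (12.5%, 3.50 to 36.0), against 61 of the other 79 plus-strand regions (77.2%, 66.8 to 85.1). Of these 2, the region of score 1000 reaches past the 16S gene, and the next minus-strand region, with a score of 26, began at 3250, 20 nt past the end of MT-RNR2. The 3 antisense scores were 1 or 2, so a minimum score of 3 removes them all.

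The nuclear copies held 12 sense regions and 0 antisense regions. MTRNR2L8 had 5 sense regions with scores of 2, 1, 2, 2 and 6 in genomic order. The last, at 10530714 to 10530763, had 10 of its 50 nt in the gene and crossed its 5′ end. MTRNR2L1 had 3 with scores of 2, 1 and 4. MTRNR2L2 had 4 with scores of 5, 2, 1 and 2 in genomic order. No copy region reached 10, and the ranges of the 3 copies overlapped.

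At the median, copy regions had a lower score and a smaller width than nuclear regions. The median score of copy regions was 2.0 and their median width 26 nt, against 3.0 and 32.0 nt over nuclear regions. Per nt of width the medians were close, 0.0785 against 0.0833. A score of at most 2 was held by 9 of the 12 (75%, Wilson 95% interval 46.8 to 91.1), and by 49.4% of nuclear regions. Per nt of gene, regions wholly in MT-RNR2 had 199 times the summed score of those wholly in the 3 copies, with 1160 nt covered and a mean score of 240 against 280 nt covered and a mean score of 2.18. With any overlap the ratio was 243. No source used here says how reads that match both a copy and the mitochondrial gene were placed, and the part of such reads in this ratio was not tested.

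The highest same-strand score near each copy stood outside the gene, on its 5′ side. The flanks searched, 5000 nt on each side, are longer than the genes (1036 to 1555 nt), which by itself favours a higher maximum outside. Within 5000 nt upstream of MTRNR2L8, 15 further same-strand regions had a summed score of 76 (highest 18, median 3.0), and 0 regions lay within 5000 nt downstream. For MTRNR2L2, 5 upstream regions had a summed score of 26, of which a single region held 19, and a median of 2.0 as in the gene. Per 100 nt that flank had 0.52, below the 0.965 of MTRNR2L2 itself. Its 2 downstream regions had a summed score of 3. The upstream flanks of MTRNR2L8 and MTRNR2L1 had 1.52 and 1.36 per 100 nt, above the 1.01 and 0.45 of these genes. For MTRNR2L1, 3 upstream regions had a summed score of 68 and 4 downstream regions one of 6. On the opposite strand these flanks held 2 regions in all, both upstream of MTRNR2L1 with a score of 2. Nearly all upstream score of MTRNR2L1 came from a single region of 47 nt at 22021944 to 22021990, 447 nt from the gene, with a score of 65. In the whole list 0.594% of the regions had a score of 65 or more.

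Some regions of different copies lay at matching distances from the annotated 5′ ends. Counting same-strand regions from 1200 nt before the 5′ end to the length of MT-RNR2 after it, the 3 copies had 23 regions, which covered 4.89 to 10.2% of the genes themselves and 6.45 to 11.7% of this window of 2758 nt. These covered shares are per nt and are lower than the background for a count of regions that share at least 1 nt. That background was not computed, so the count cannot show more matches than random placement would give. Of the 23 regions, 10 overlapped a region of another copy, in 5 pairs, and the others did not. By copy these were 4 of 10 regions for MTRNR2L8, 5 of 7 for MTRNR2L2 and 1 of 6 for MTRNR2L1. In 4 pairs MTRNR2L8 was set against MTRNR2L2. Their regions 38 to 60 nt into the gene had the same start, end and score of 2, with inner positions 8 nt apart.

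Upstream, the regions 1104 to 1070 nt before MTRNR2L8 and 1100 to 1066 nt before MTRNR2L2 shared 31 of 35 nt, with scores of 2 and 19 and inner positions 4 nt apart. The others shared 22 nt, with scores of 4 and 2, and 23 nt, with scores of 11 and 2, and their inner positions were 12 and 10 nt apart. The fifth pair, in MTRNR2L1 and MTRNR2L2, shared 27 nt and had its inner positions at the same distance, with scores of 2 and 1. The distances rest on the annotated ends and not on a sequence alignment. The window and the comparison were chosen after the positions were seen, and no test was made.

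**Figure D4:**
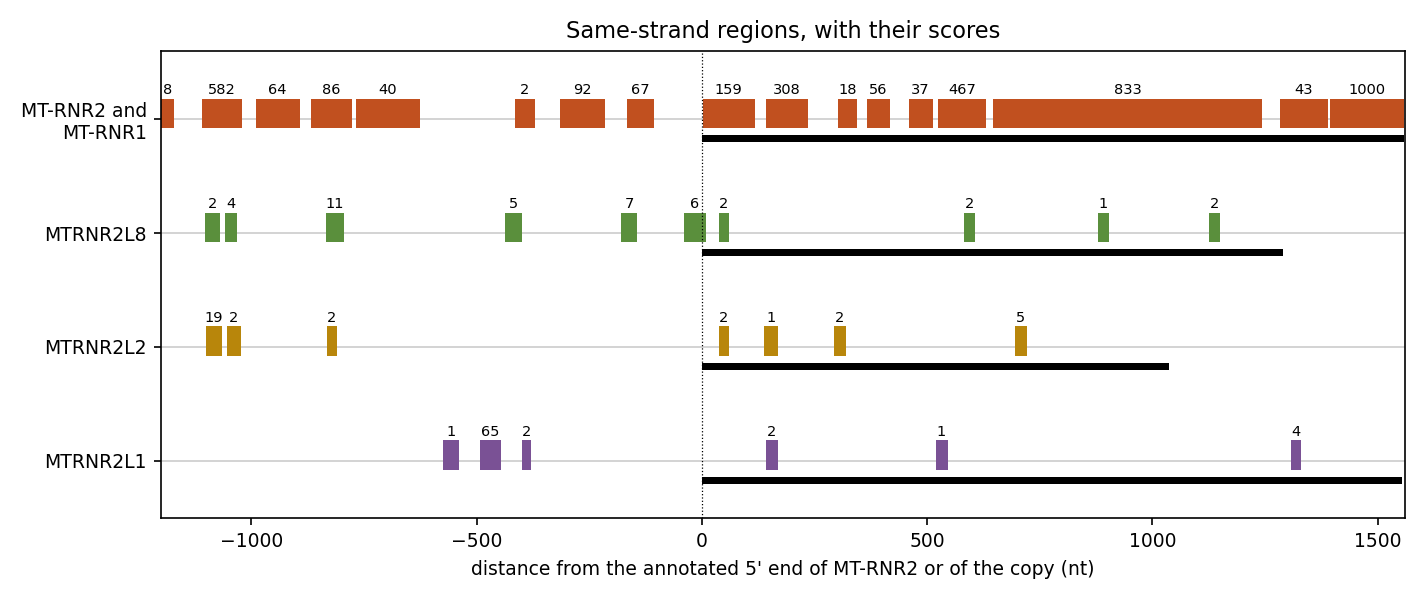
Same-strand regions of the mitochondrial rRNA genes and of the 3 copies, placed by distance in nt from the annotated 5′ end of MT-RNR2 or of the copy, with the score above each. Black bars are the spans of MT-RNR2 and of the copies. Boxes of MTRNR2L8 and MTRNR2L2 stand above each other at 4 places, and the score of 65 before MTRNR2L1 stands under the hole in MT-RNR1.

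Set on the mitochondrial genes by the same distances, copy regions mostly fell where mitochondrial regions lay, as most of that stretch was covered. Of the 694 nt in the 23 copy regions, 512 (73.8%) fell on a mitochondrial plus-strand region, and 71.7% of the window was covered there, so the match was near the background. The region of 19 before MTRNR2L2 fell at 573 to 607, inside the mitochondrial region of score 582. Of the 23, 2 fell on no mitochondrial region, and both belonged to MTRNR2L1. They were the region of score 65, placed at 1180 to 1226, and a region of score 1, placed at 1099 to 1132. Both places lie in the uncovered stretch of MT-RNR1 from 1048 to 1258. This placement carries the 5′ ends of MTRNR2L1 (1555 nt) and MT-RNR2 (1558 nt) onto each other and assumes that nothing was inserted or lost upstream, which was not checked against sequence. RefSeq on GRCh38.p14 gives MTRNR2L1 only 1249 nt, so the placement also depends on the annotated end.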

How the data were processed

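The series comprises 3 AGO1 libraries and 1 AGO2 library. Its PAR-CLIP regions were used as a single list that the authors deposited, which holds the coordinates, strand and score of each region and a 1-nt position inside it. Per the file headers, the list is on hg19, names a library set, AGO_good, and passed a filter named with the value 0.05. BWA 0.5.8c was used, per the submitters' processing notes. No source used here names the region caller, the unit of the score or the libraries in the set. The score (1 to 1000) and the coordinates were used as deposited, and 7 regions stood at 1000.

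The members and all lists were chosen with earlier results of these data known. The named genes are the 5 given by the rule, each with every region on either strand. Gene spans on hg19 came with that rule. Gene order, types and lengths came from RefSeq on GRCh38.p14, with no coordinate taken from it. Counts, covered nt, score per nt and Wilson 95% intervals were computed with Python 3.11.15, numpy 2.4.6, pandas 2.3.3 and scipy 1.17.1, and figures with matplotlib 3.10.9. The overlap functions were tested on simulated regions. No p-value was computed, since there are no values per library. Alternatives changed the overlap rule, the score minimum, the score ceiling or the regions left out.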

Additional observations from a re-analysis of the deposited data

How the results depend on the processing

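No paired analysis was possible because values per library were not used here, and no library could be left out. There were 34 alternatives for 7 results. After seeing the data, 2 of them were added (regions wholly in the gene with scores above 100 set to 100, and regions wholly in the gene without the highest of MT-RNR2). In 24 the value stayed within 1.5 times of the reported one or, for the share of high scores, inside its Wilson interval. This count is no measure of stability, as some alternatives could not differ. No sense rRNA region scored below 2, so a minimum of 2 left the sense rRNA results unchanged. The inner-position and whole-region rules gave equal values for every result they were applied to. The ratio of score per nt of MT-RNR2 over MT-RNR1 (1.92) was 3.35 when the inner position or the whole region had to lie in the gene. It was also 3.35 when the highest region of each rRNA was left out, which kept the same regions. The ratio fell below 1, to 0.888, with scores above 100 set to 100, and to 0.966 when regions also had to lie wholly in the gene. In the latter case the cap could lower only MT-RNR2. The rRNA percent of the plus-strand mitochondrial score (27.3) was 16.1 under both gene rules and 18.1 without the highest regions. With a score of 3 or more, antisense rRNA regions fell from 3 to 0 and copy regions from 12 to 3, since most have scores of 1 or 2. The depth of the libraries is unknown.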

Other observations

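Region ID numbers in the list run along the chromosomes, and some numbers are carried by no region. Between the lowest and highest number of each of the 5 genes, 0 numbers were unused. Regions of both strands numbered 7, 12, 5, 3 and 4 in MT-RNR1, MT-RNR2, MTRNR2L8, MTRNR2L1 and MTRNR2L2. The numbers of MT-RNR2 run from 209924 to 209940, and some in that run belong to regions outside the gene. RefSeq lists 13 nuclear MTRNR2L genes, of which the other 10 were not analysed here.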
